A study of Mus musculus with 6 samples.

Results

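Skeletal muscle genes were examined in bulk skin of Db/Db mice, as the 9 rows of the deposited count table with the symbols Ttn, Neb, Ryr1, Acta1, Myh1, Myh2, Myh4, Ckm and Atp2a1, out of 48377 symbols. Db/Db mice lack a working leptin receptor and are obese and diabetic, a state shared by the controls and the treated animals alike. Vehicle (DMSO) was given to 3 samples and vemurafenib (PLX4032, a BRAF kinase inhibitor, 1 uM) to the other 3, each for 16 days. The labels give no age, sex or background strain, and do not say that each library came from its own animal, so any p-value here reflects how far these libraries scatter, in part perhaps for technical reasons. The question put to the 9 genes was how much muscle each piece of skin held under either treatment.

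Mouse skin carries a thin sheet of striated muscle, the panniculus carnosus, under the dermis and fat, built largely of fast-twitch fibres. Such fibres shorten when myosin thick filaments pull on actin thin filaments, titin and nebulin hold those filaments in register, and calcium is released from and pumped back into the sarcoplasmic reticulum. Transcripts of the actin, myosin, creatine kinase and calcium pump genes are among the most abundant mRNAs of muscle. A skin sample that takes in more or less of this sheet therefore carries more or less of all of them together.

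The 9 genes held 94 counts in 223495 over the 6 libraries. Of these, 40 lay under Ttn and 37 under Atp2a1, together 81.9%. Acta1, Myh1 and Myh4 had 0 counts in every library, Ckm had 1 and Myh2 had 2. Skeletal actin and the fast myosins Myh1 and Myh4, which define such fibres, were thus not detected, and the counts do not bear out the name of a muscle measure. The set is therefore called the 9 genes below. For the genes at 0, a count of 0 allows up to 13.4 CPM (counts scaled to a library total of 1000000) over all libraries pooled. In the single libraries, whose totals ran from 14189 to 78434 counts, the same limit of 3 counts lay between 38.2 and 211 CPM. These limits, and all intervals given here, are at 95% or 3 counts and cover counting error only. They bound what was counted under a gene's name, not its transcript, because the sources used here do not say which strand was counted.

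Sequence could bear on these low counts in 2 ways, neither of them tested. The stretches concerned are printed here from GENCODE M21 transcripts (mm10). The first is that the fast myosin genes are near copies of each other. Myh2 codes for the heavy chain of type IIa fibres, Myh1 for that of type IIx fibres and Myh4 for that of type IIb fibres. The first 90 coding bases of the 3 genes are shown, with capitals where the 3 are not all the same, which is at 7 positions.
Myh2 (chr11:67173116-67173205, plus strand): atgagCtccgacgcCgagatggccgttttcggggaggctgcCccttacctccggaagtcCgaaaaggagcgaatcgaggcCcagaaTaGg
Myh1 (chr11:67201882-67201971, plus strand): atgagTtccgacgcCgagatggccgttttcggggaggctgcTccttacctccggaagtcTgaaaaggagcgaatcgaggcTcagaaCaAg
Myh4 (chr11:67240624-67240713, plus strand): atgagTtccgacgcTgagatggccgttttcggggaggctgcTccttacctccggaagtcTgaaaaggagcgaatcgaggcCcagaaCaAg

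Over the whole coding sequence Myh1 was 91.0% identical to Myh2 and 90.1% to Myh4, and Myh2 was 88.1% identical to Myh4. Of all 50-base windows of the Myh1 transcript, 26.7% also occurred letter for letter in a transcript of another gene. The share was 26.9% for Myh2 and 18.9% for Myh4. For Acta1 it was 2.22%, for Atp2a1 0.117%, and for Ttn, Neb, Ryr1 and Ckm 0%. Reads that fall in shared windows cannot be assigned to 1 gene, so the counts of the 3 myosins are uncertain. Most windows of each gene were its own, and the window length was chosen here because the sources used here give no read length.

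The second is that 6 of the 9 genes have a feature with at least 100 bp of exon on the opposite strand. Neb, Acta1 and Myh4 have no such feature. Gm13938 lies opposite Ttn with 453 of its 493 exon bases, all of them facing coding sequence of Ttn. These bases are 0.388% of the exon length of Ttn. Myhas, annotated as antisense at the fast myosin locus, lies opposite 515 bases or 8.11% of Myh1 exon, 406 of them coding. The first 60 bases of each that face an exon are shown, with capitals for bases that face coding sequence, which is all of them. The reverse complement of each stretch was found in a transcript of the muscle gene.
Gm13938, opposite Ttn (chr2:76722776-76722835, plus strand): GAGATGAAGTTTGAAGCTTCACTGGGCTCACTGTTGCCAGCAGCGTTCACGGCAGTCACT
Myhas, opposite Myh1 (chr11:67211525-67211584, minus strand): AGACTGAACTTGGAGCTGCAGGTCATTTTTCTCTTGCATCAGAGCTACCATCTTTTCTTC

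Levels of different genes were compared as counts per kb of merged exon, with the 6 libraries pooled. Atp2a1 stood first at 10.6 counts per kb, above 97.3% of 21634 protein-coding genes. It was followed by Ckm at 0.343, Ttn at 0.342, Neb at 0.339, Myh2 at 0.280 and Ryr1 at 0.229 counts per kb. These 5 values rest on 1, 40, 9, 2 and 5 counts, so their order cannot be told from counting error. The median protein-coding gene had 0.231 counts per kb and 43.9% of such genes had no count, which places the 5 near the middle of all genes. The 3-count limit was 1.95 counts per kb for Acta1, 0.472 for Myh1 and 0.499 for Myh4. Acta1 is short, so its 0 limits its density least of the 3.

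The features on the other strand were more densely counted than the muscle gene they face in 5 of 6 pairs, although 2 of the 5 pairs include a gene with 1 count (Ckm and 9430073C21Rik). Gm13938 had 36.5 counts per kb, a level 107 times that of Ttn, whose counts are averaged over 116825 bp of merged exon. The level of Ttn within the bases that Gm13938 faces was not computed. Myhas had 2.47 counts per kb where Myh1 had none. A930016O22Rik, opposite Ckm (451 bp), had 1.95 counts per kb. Gm26604, opposite Ryr1 (864 bp), had 1.93, and 9430073C21Rik, opposite Myh2 (237 bp), had 0.460 on 1 count. Among 1554 long non-coding genes that face protein-coding exons the median was 5.90 counts per kb, so Gm13938 lay above 84.7% of them and the other 4 lay below the median. The exception was Atp2a1, which was denser than its partner Rabep2 at 3.57 counts per kb. Rabep2 codes for an endosomal Rab effector and is a gene of its own, expressed outside muscle. Its exons cover 763 bp or 21.9% of the exon length of Atp2a1, 517 bp of it coding for the pump. Among the 2093 protein-coding genes with at least 100 bp facing another coding gene's exons, Atp2a1 lay above 86.0%. Which strand's transcript gave the counts under either name was not tested.

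**Figure D1:**
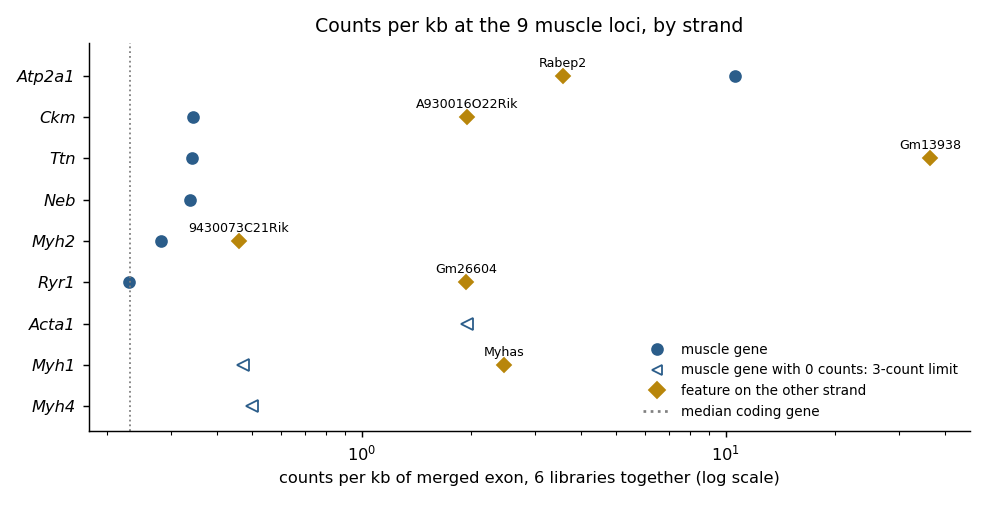
Counts per kb of merged exon (log axis) for the 9 muscle genes (circles; open triangles mark the 3-count limit of genes with 0 counts) and for the feature on the opposite strand (diamonds), 6 libraries together. Gm13938 at 36.5 lies far to the right of Ttn at 0.342, and Atp2a1 at 10.6 is the only muscle gene well above the dotted line, the median coding gene at 0.231.

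Titin, the giant spring protein that spans the sarcomere from Z disc to M band, was the most counted of the 9. Its gene Ttn (2:76703980-76982547, minus strand, 116825 bp of merged exon) had 7, 5 and 10 counts in vehicle 1, 2 and 3 and 11, 4 and 3 counts in vemurafenib 1, 2 and 3. Scaled to library size these were 305, 321 and 218 CPM under vehicle and 147, 180 and 82.1 CPM with vemurafenib. The 3 vemurafenib values all lay under the lowest vehicle value, but the gap was narrow: 1 more count in vemurafenib 2 would have put it at 225 CPM, above vehicle 3.

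The mean level of Ttn was 282 ± 55.3 CPM under vehicle and 136 ± 49.7 CPM with vemurafenib (SD, n = 3). The difference did not pass the test. With edgeR's quasi-likelihood test over 4697 genes the log2 fold change was -0.996 ± 0.61 (SE), with an adjusted p of 0.999 and an unadjusted p of 0.102. The exact permutation test of the CPM, two-sided, gave p = 0.1, the smallest that 3 against 3 libraries allow. Of all tested genes 3.13% lay wholly lower with vemurafenib in the same way and 7.43% wholly higher. Pooled over libraries, 22 of 85972 counts against 18 of 137523 give a ratio of 0.511, with an exact 95% interval of 0.259 to 0.999 from counting error alone, which leaves out the spread between libraries. The values are counts under the name Ttn in bulk tissue, where fewer cells of a type and less RNA per cell cannot be told apart.

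Gm13938 (2:76722776-76786708, plus strand) had 4, 8 and 2 counts with vehicle and 4, 0 and 0 with vemurafenib. That is 174, 514 and 43.7 CPM against 53.4, 0 and 0 CPM, so vehicle 3 lay below vemurafenib 1 and the groups overlapped. Its log2 fold change was -2.65 ± 0.89 with an adjusted p of 0.407 (edgeR), which did not pass, and it was -1.66 without vehicle 2 and -3.42 without vehicle 3. All its vemurafenib counts were in vemurafenib 1, so the -5.48 fitted without that library stands against libraries at 0 and depends on the prior count. The counts of both strands of the locus summed to 479, 836 and 262 CPM under vehicle and 200.4, 180 and 82.1 CPM with vemurafenib. This sum was formed after the values were seen and is given without a test. Vemurafenib 2 and vemurafenib 3 both had 0 counts of Gm13938, and they were the highest and the lowest of the vemurafenib libraries for Ttn (180 and 82.1 CPM).

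Neb codes for nebulin, which runs along the thin filament (2:52136647-52378474, minus strand). It had 1 count in each vehicle library and 2, 0 and 4 counts in vemurafenib 1, 2 and 3. Vemurafenib 3, the lowest library for Ttn, was thus the highest for Neb, and a gene of 9 counts was too thin to test. Acta1, the skeletal actin of those filaments (8:123891769-123894751, minus strand), had none.

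Among the fast myosins, Myh2 (11:67171027-67197517, plus strand) had 1 count each in vehicle 1 and vehicle 2 and none elsewhere. Myh1 (11:67200052-67224575) and Myh4 (11:67238029-67260446) had none. Myhas (11:67211256-67237573, minus strand) had 4 counts in vehicle 1 and 1 in vehicle 2. These were the same 2 libraries in which Myh2 was seen, but so few counts show no difference between the groups. 9430073C21Rik, opposite Myh2, had 1 count, in vehicle 3.

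Calcium handling gave the other well-counted gene. Atp2a1 (7:126445858-126463108, minus strand) codes for the fast-twitch calcium pump of the sarcoplasmic reticulum. It had 5, 2 and 7 counts with vehicle and 13, 3 and 7 with vemurafenib, or 218, 129 and 153 CPM against 174, 135 and 192 CPM. The libraries of both groups were interleaved, with means of 166 ± 46.2 and 167 ± 29.0 CPM (SD, n = 3). The log2 fold change was 0.03 ± 0.63 (edgeR, adjusted p = 0.999), and the counting interval of the pooled ratio, 0.506 to 2.16 around 1.03, was wide. Ttn and Atp2a1 were the only members with the 10 counts needed for a test, and 0 of these 2 passed. In the same test 3 of 4697 genes passed, or 0.0639%, all of them higher with vemurafenib. The direction of such calls differed by method: 3 were higher and 2 lower with DESeq2 size factors or library totals, and 0 higher and 2 lower with limma-voom. Before adjustment 254 genes, or 5.41%, had p under 0.05, and neither Ttn nor Atp2a1 was among them.

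Rabep2 (7:126428759-126449245, plus strand) had 4, 2 and 1 counts with vehicle and 3, 5 and 4 with vemurafenib, a log2 fold change of 0.16 ± 0.84 (edgeR, adjusted p = 0.999). Its level was 174, 129 and 21.8 CPM under vehicle, against 40.1, 225 and 109.5 CPM under vemurafenib. The groups overlapped, as they did for Atp2a1 on the other strand. Ryr1, the channel that releases calcium to start a contraction (7:29003344-29125179, minus strand), had 4 counts in vemurafenib 3, 1 in vehicle 2 and none elsewhere. Its partner Gm26604 had 2, 1 and 0 counts with vehicle and 2, 1 and 1 with vemurafenib. Ckm, the muscle creatine kinase that restores ATP (7:19404776-19422841, plus strand), had 1 count, in vehicle 2. A930016O22Rik on the other strand had 1, 2 and 0 counts with vehicle and 0, 2 and 0 with vemurafenib.

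**Figure D2:**
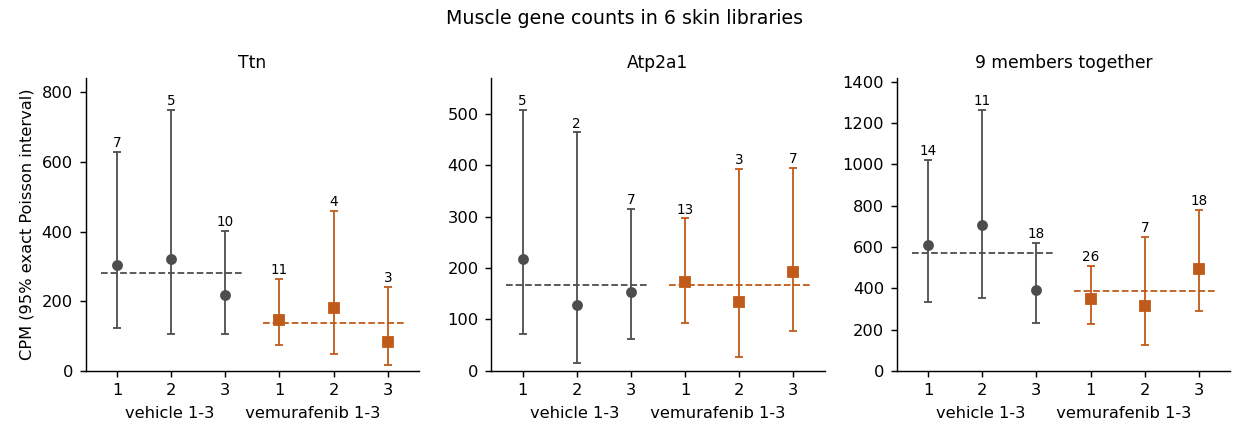
CPM in each library (circles vehicle, squares vemurafenib) with exact 95% Poisson intervals, the count printed above each and dashed lines at the group means. Ttn separates the groups with intervals that overlap, whereas Atp2a1 and the 9 genes together do not separate them.

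The 9 genes summed to 610, 707 and 393 CPM in the vehicle libraries and to 347, 315 and 493 CPM in the vemurafenib libraries, each in the order 1, 2, 3. The groups overlapped, since vemurafenib 3 lay above vehicle 3. The mean was 570 ± 161 CPM under vehicle and 385 ± 94.8 CPM with vemurafenib (SD, n = 3), a log2 ratio of -0.57 that is given without a test. Without Ttn the sum had a log2 ratio of -0.21. With the counts of each gene divided by its exon length the log2 ratio was -0.31. Leaving out Atp2a1, an alternative that was not planned, gave -0.89. The value thus depended on how much weight those 2 genes took. The totals of vehicle 2, 1 and 3 were 14189, 22985 and 48798 counts, and the sum fell in that order. Those of vemurafenib 2, 3 and 1 were 20796, 38293 and 78434 counts, with sums of 315, 493 and 347 CPM. The part of depth in these sums was not tested.

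The 6 features on the opposite strand summed to 654, 900 and 87.4 CPM under vehicle and 120, 360 and 137 CPM with vemurafenib. Vehicle 3 had the lowest sum of all, so the groups overlapped here too. The log2 ratio of the means was -1.41. Leaving out Rabep2, an alternative chosen after the values were seen, left 479, 771 and 65.5 CPM under vehicle and 80.1, 135 and 27.4 CPM with vemurafenib, and the log2 ratio became -2.44. Of these 36 counts, 18 were under Gm13938. On either strand vehicle 1 and vehicle 2 were the highest 2 libraries and vehicle 3 was not.

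**Figure D3:**
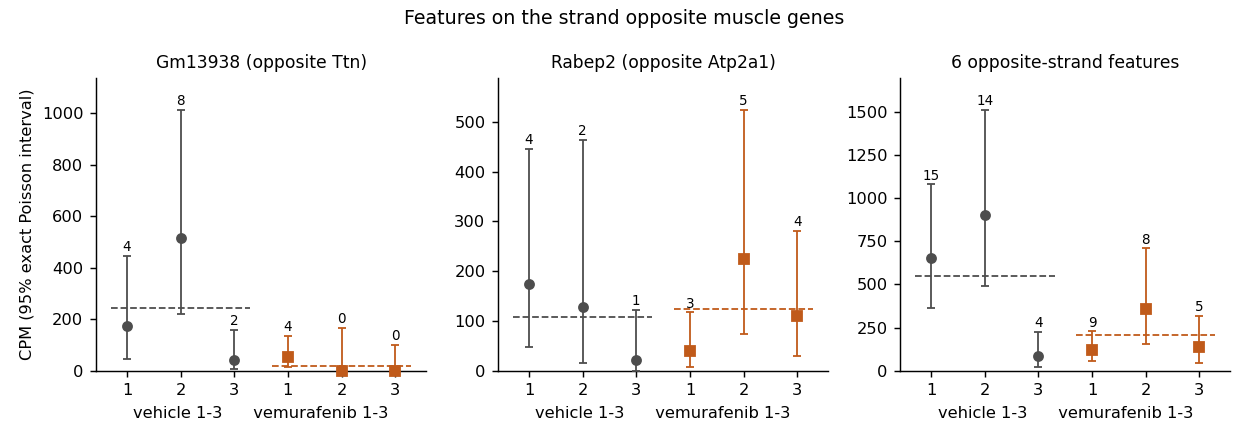
CPM in each library of Gm13938 opposite Ttn, Rabep2 opposite Atp2a1, and all 6 opposite-strand features summed, with exact 95% Poisson intervals, counts above the bars and dashed group means. Vehicle 2 is highest for Gm13938 and for the sum, and vehicle 3 lies within or below the vemurafenib libraries in all 3 panels.

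Other genes of striated muscle were counted in 6 further lists of 97 genes, of which 56 had a count and 41 had none. Of the 9 with at least 10 counts, 0 passed the test in either direction, and their median log2 fold change was 0.30 against 0.09 over all tested genes. The lists summed to 1220, 1543 and 1049 CPM under vehicle and 1563, 1034 and 1095 CPM with vemurafenib. The group means of 1271 ± 251 and 1231 ± 289 CPM (SD, n = 3) differed by less than the spread within a group. Some genes of these lists, among them Tpm1, Tpm2, Utrn and Dag1, are also made by other skin cells.

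Among thick filament and M band genes, 11 of 14 had a count, 26 in all, and 0 could be tested. Among thin filament and Z disc genes, 17 of 24 had a count and 0 of 3 tested passed. Tpm2 and Tpm1, tropomyosins that smooth muscle and fibroblasts also make, held 30 and 17 of the 87 counts. Tpm2 had 0, 193 and 153 CPM under vehicle and 174, 89.9 and 137 CPM with vemurafenib, with overlapping groups.

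Of the triad and excitation genes, 8 of 18 had a count and 0 of 1 tested passed. Chrnb1, a subunit of the acetylcholine receptor at the nerve-muscle junction, held 20 of 39 counts, at 116 ± 24.4 and 88.7 ± 21.4 CPM (SD, n = 3). Jph2, which ties the reticulum to the cell membrane, and Asph, of which junctin is a splice form, had 7 counts each. In the membrane complex list, 10 of 15 genes had a count and 0 of 4 tested passed. Utrn, the dystrophin relative utrophin, had 131, 129 and 109 CPM under vehicle and 120, 89.9 and 54.7 CPM with vemurafenib. Dag1, the dystroglycan gene, had 43.6, 64.3 and 43.7 CPM under vehicle and 66.8, 89.9 and 82.1 CPM with vemurafenib, from 1 to 5 counts a library. The 3 vemurafenib values of Dag1 were above the 3 vehicle values, as they were for 7.43% of all tested genes. The log2 fold change of Dag1, 0.64 ± 1.00 (edgeR, adjusted p = 0.999), did not pass.

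Of the 14 energy metabolism genes 8 had a count and 0 of 1 tested passed. The list summed to 174, 129 and 65.5 CPM under vehicle and 254, 135 and 356 CPM under vemurafenib, with overlapping groups, and 21 of its 44 counts were under Pgam2. Pgam2, the muscle phosphoglycerate mutase of glycolysis (11:5801640-5803733, minus strand), had 1, 1 and 2 counts with vehicle and 7, 2 and 8 with vemurafenib. In CPM this was 43.6, 64.3 and 43.7 against 93.5, 89.9 and 219, so the groups did not overlap. They lay in the opposite order to Ttn, wholly higher with vemurafenib like 7.43% of all tested genes. The log2 fold change of Pgam2 was 1.40 ± 0.90 (edgeR, adjusted p = 0.999, unadjusted p = 0.117) and did not pass. Pfkm, the muscle phosphofructokinase, had 9 counts, from 1 to 3 in each library. Of the satellite cell and regeneration genes, 2 of 12 had a count, with 8 counts in all, while Pax7, Myod1, Myf5 and Myog had 0.

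Likeness of other genes to Ttn is given as a description only, without a test. Over the 6 libraries the genes with at least 60 counts whose log2 CPM ran most like Ttn were Tmem198b (r = 0.92), the RNA component gene Rmrp (r = 0.89) and Gm27483 (r = 0.89), out of 587 ranked. Group means were not removed first, so the coefficients include any difference between vehicle and vemurafenib. Tmem198b was 1 of the 2 genes that passed with limma-voom, both lower with vemurafenib. With 6 libraries and so many genes, high coefficients arise easily, and Ttn itself rests on 3 to 11 counts a library.

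Genes of neighbouring tissues moved between libraries as follows, and their part in the values above was not tested. Smooth muscle genes, 9 of 11 with a count, ran from 450 to 1136 CPM under vehicle and from 493 to 735 CPM with vemurafenib. Their leading gene Mylk, the myosin light chain kinase, had 31 of its 63 counts in vehicle 3. Dermal collagen genes, all 11 counted, ran from 37048 to 79323 CPM and from 22365 to 44222 CPM, with the highest level in vehicle 3 and the lowest in vemurafenib 3. Col1a1 alone had 15570 ± 5764 and 10720 ± 3992 CPM (SD, n = 3). Of the 9 collagen genes tested, 9 had a log2 fold change below 0, as had 2086 of all 4697 tested genes, and 0 passed. Keratinocyte genes, all 10 counted and led by Dsp, ran from 2833 to 4693 CPM and from 4395 to 6406 CPM, highest in vemurafenib 3. Of the 9 tested, 6 had a log2 fold change above 0 and 3 below, and 0 passed. Dsp had 634 ± 302 and 1400 ± 479 CPM (SD, n = 3), wholly higher with vemurafenib like 7.43% of all tested genes. Its log2 fold change was 1.22 ± 0.47 (edgeR, adjusted p = 0.510, unadjusted p = 0.0096). Adipocyte genes, 7 of 10 counted and led by Lipe, ran from 240 to 610 CPM and from 468 to 1369 CPM, again highest in vemurafenib 3. Heart-only genes had 14 counts, led by Mybpc3 with 6, while Myh6 had 0.

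Vehicle 3 and vemurafenib 3, at the ends of the collagen list, were also the lowest library of their group for Ttn. Without vehicle 3 the log2 fold change of Ttn was -1.24, and without vemurafenib 3 it was -0.77.

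**Figure D4:**
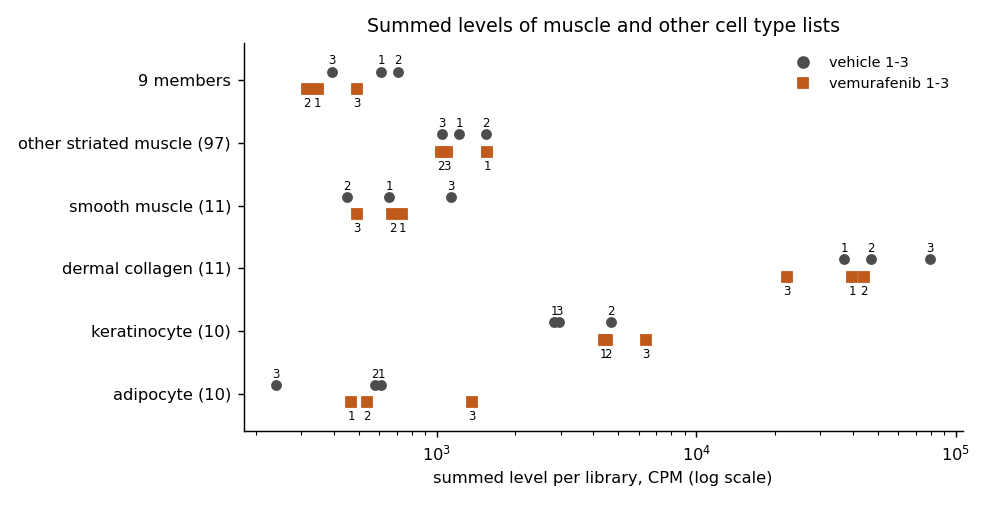
Summed level of each list in each library (log axis, CPM), circles for vehicle and squares for vemurafenib, with the replicate number beside each. The 9 genes sit between 315 and 707 CPM, far under collagen at 22365 to 79323 CPM, and none of the 6 lists separates the groups.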

How the data were processed

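Poly(A) RNA of skin was made into stranded single-end libraries with a KAPA kit, per the labels' protocols. Raw read counts, 1 whole number per gene symbol and library, are what the authors deposited, in a single table. HISAT2, HTSeq and mm10 are named in the submitters' processing notes, which give no version, annotation, read length or strand setting. 1 further column matched no sample and was not used.

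Genes with at least 10 counts over the 6 libraries were tested with edgeR 4.0.16 (R 4.3.3, TMM scaling, robust quasi-likelihood test, group as the only term, Benjamini-Hochberg adjusted p under 0.05). The test was checked on simulated counts. The changed genes of that check were drawn from genes with at least 60 counts, more than Ttn or Atp2a1 had, so it does not cover them. The SE was obtained by dividing the log2 fold change by the root of the F statistic. CPM are counts per 1000000 of the TMM-adjusted library total, and the 3-count limits use the unadjusted total. List sums are per library and carry no test. The log2 ratio of a sum is that of its group means. Poisson intervals are exact, at 95%. Exons, positions and transcripts came from GENCODE M21, which holds 99.2% of the symbols. Shared windows were sought on the same strand in all its transcripts.

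The members and lists were chosen with earlier results of these data known. Named were all members, every feature with at least 100 bp of exon opposite them, the 2 most counted genes (5 counts or more, ties kept) of each other striated muscle list, the most counted gene of each list of other cells, and the 3 genes most like Ttn. Of these, 2 genes are not reported here. Genes named at 0 or with fewer counts were chosen after their values were seen. Alternatives were other scalings, filters and tools (DESeq2 1.42.0, limma-voom 3.58.1), a replicate block and leaving out each library.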

Additional observations from a re-analysis of the deposited data

How the results depend on the processing

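With 94 counts over 9 genes, depth limits every statement here. The count of members past the threshold stayed 0 in all 14 alternatives that tested any, and filterByExpr left 0 members to test. The 3 changed genes over the whole table (3 higher, 0 lower) became 5 with DESeq2 size factors or library totals only (3 higher, 2 lower). They became 5 with upper quartile scaling (4 higher, 1 lower) and 2 with limma-voom (0 higher, 2 lower). With filterByExpr 0 passed, and 23 of 477 tested genes had an unadjusted p under 0.05. With DESeq2 0 passed, and 58 of 4697 had such a p, against 254 of 4697 in the main test. Leaving out 1 library gave 0 to 4 changed genes, with 0 without vehicle 2, 1 without vehicle 1 and 1 without vehicle 3. The cause was not tested. Scored on the genes of the main test, the median log2 fold change was 0.09, 0.23 with at least 1 CPM in 3 libraries and 0.29 with no filter beyond 1 count. Ttn kept its direction in all 14, from -1.24 to -0.77, with an adjusted p from 0.707 to 0.9999, and its groups did not overlap under the other 3 scalings. Atp2a1 turned negative with limma-voom (-0.0062) and ran from -0.11 to 0.22 when leaving out 1 library. Gm13938, added after the data were seen, stayed below 0, from -5.48 to -1.66, with an adjusted p from 0.209 to 0.9998. The log2 ratio of the 9 genes ran from -0.89 (without Atp2a1, not planned) to -0.21. That of the opposite-strand features ran from -2.44 (without Rabep2, not planned) to -0.84. That of the other striated muscle genes, -0.05, ran from -0.26 to 0.10 when leaving out 1 library and changed sign without vehicle 2, vemurafenib 2 (0.07) or vemurafenib 3 (0.04). Same-numbered libraries did not deviate together (correlations 0.04, -0.13 and -0.34 over 587 genes, 1 of 6 libraries closest to its own number). With the replicate number as a block, 2 genes and 0 members passed, and the log2 fold change was -1.08 for Ttn and 0.01 for Atp2a1.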
